A study of Mus musculus with 6 samples.

Results

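The genes described here are 10 members of the mouse MS4A family (Ms4a2, Ms4a3, Ms4a4b, Ms4a4c, Ms4a4d, Ms4a6b, Ms4a6c, Ms4a6d, Ms4a7 and Ms4a8a), taken by symbol from the 16358 genes whose array probes could be named through RefSeq accessions. The gene for CD20, the best known protein of the family, was not among them. All 10 had at least 1 probe, and 15 probes were found in all. Of these genes 8 were well above background on every array, Ms4a3 only on the 2 tg/tg arrays and Ms4a2 on none of the 6.

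Total RNA of whole lung was measured on 6 single-colour Agilent arrays, 2 for each of 3 genotypes on the C57BL/6 background. The first genotype, hCD2-T-bet tg/tg, and the second, hCD2-T-bet tg/wt, carry a transgene that overexpresses T-bet in T cells and is named after human CD2, and the third is WT. T-bet, encoded by Tbx21, directs T helper 1 differentiation, and the series deals with pulmonary alveolar proteinosis, the filling of air spaces with surfactant, in these mice. Age and sex are not given in the sources used here, and the labels do not say whether the 2 arrays of a genotype came from separate animals, so p-values measure the spread between arrays, which may be technical.

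Each value below is a log2 signal relative to the 75th percentile of its array, a level that can be compared between arrays for 1 probe but not between probes. Tbx21 had levels of 3.25 and 3.26 in tg/tg, 1.30 and 1.34 in tg/wt and -0.70 and -0.71 in WT, in the order of the labels. The 75th percentile lay between 794 and 1204 intensity units per array, and replicate arrays correlated at 0.996 or more across genes. The 2 tg/tg and the 2 WT arrays shared slide 1, and the 2 tg/wt arrays lay on slide 2, so that slide and genotype cannot be told apart in any comparison with tg/wt. The lung markers were present: all 8 listed genes, among them Sftpc, which was saturated on 6 arrays, were well above background in every group.

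MS4A proteins cross the membrane several times with both ends inside the cell, and many of them sit beside immune receptors and modulate their signalling. Members differ in the blood cells that use them: Ms4a2 in mast cells and basophils, Ms4a3 in granulocyte and monocyte progenitors, Ms4a4b in mouse T cells, and Ms4a6c, Ms4a6d and Ms4a7 in monocytes and macrophages. Their genes lie side by side on mouse chromosome 19. Because whole lung was measured, more cells of a type and more RNA per cell cannot be told apart in any result below.

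In tg/tg lungs the family was broadly higher than in WT. Ms4a7 and Ms4a6d were 30.3-fold and 23.1-fold higher, Ms4a6c, Ms4a4b, Ms4a6b and Ms4a4c between 5.48-fold and 12.4-fold higher, and Ms4a4d and Ms4a8a 1.40-fold and 1.42-fold higher. The Ms4a4d value is that of its brighter probe, and its other probe gave a larger log2 difference, 0.91. Ms4a3 was detected in tg/tg alone, and Ms4a2 stayed near background throughout. In tg/wt lungs Ms4a4b and Ms4a7 were already 2.69-fold and 2.47-fold higher than in WT, whereas Ms4a6c and Ms4a6d had levels in which the arrays of tg/wt and WT overlapped.

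Of the 10 genes 9 could be tested, and all 9 were higher in tg/tg lungs than in WT (limma, Benjamini-Hochberg threshold 0.05). Across all 12968 genes tested, 33.8% were called higher, 40.8% lower and 74.7% in either direction. Ms4a3 entered the test through its tg/tg arrays and so had to differ, and the count with it is a description. The median log2 difference of the 9 was 3.12, against -0.053 over all genes. By signed log2 difference, lowest to highest, Ms4a7, Ms4a6d, Ms4a6c, Ms4a4b, Ms4a6b and Ms4a4c lay at percentiles 96.8 to 99.6 of all genes. Ms4a4d and Ms4a8a lay at 80.2 and 80.6 of that ranking, in which every lowered gene counts below them. Ms4a3 is not ranked, since its WT signals were below background. In tg/wt against WT, 4 of the 9 (Ms4a4b, Ms4a7, Ms4a6b and Ms4a4c) were called, all higher, where 13.4% of all genes were called higher, 14.6% lower and 27.9% in either direction. That last share was 14.7% with no filter on dim probes, and 13.9%, 11.3%, 10.8% and 11.4% without tg/wt 1, tg/wt 2, WT 1 and WT 2. In tg/tg against tg/wt all 9 were higher, where 34.0% of all genes were called higher, 40.2% lower and 74.2% in either direction. Both tg/tg arrays lay above both WT arrays for all 9, as for 40.2% of all genes, and above both tg/wt arrays for all 9, as for 40.1%. Both tg/wt arrays lay above both WT arrays for 5 of the 9, the 4 called genes and Ms4a4d, as for 34.9% of all genes. The comparisons share arrays, so their calls are not independent of each other.

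**Figure D1:**
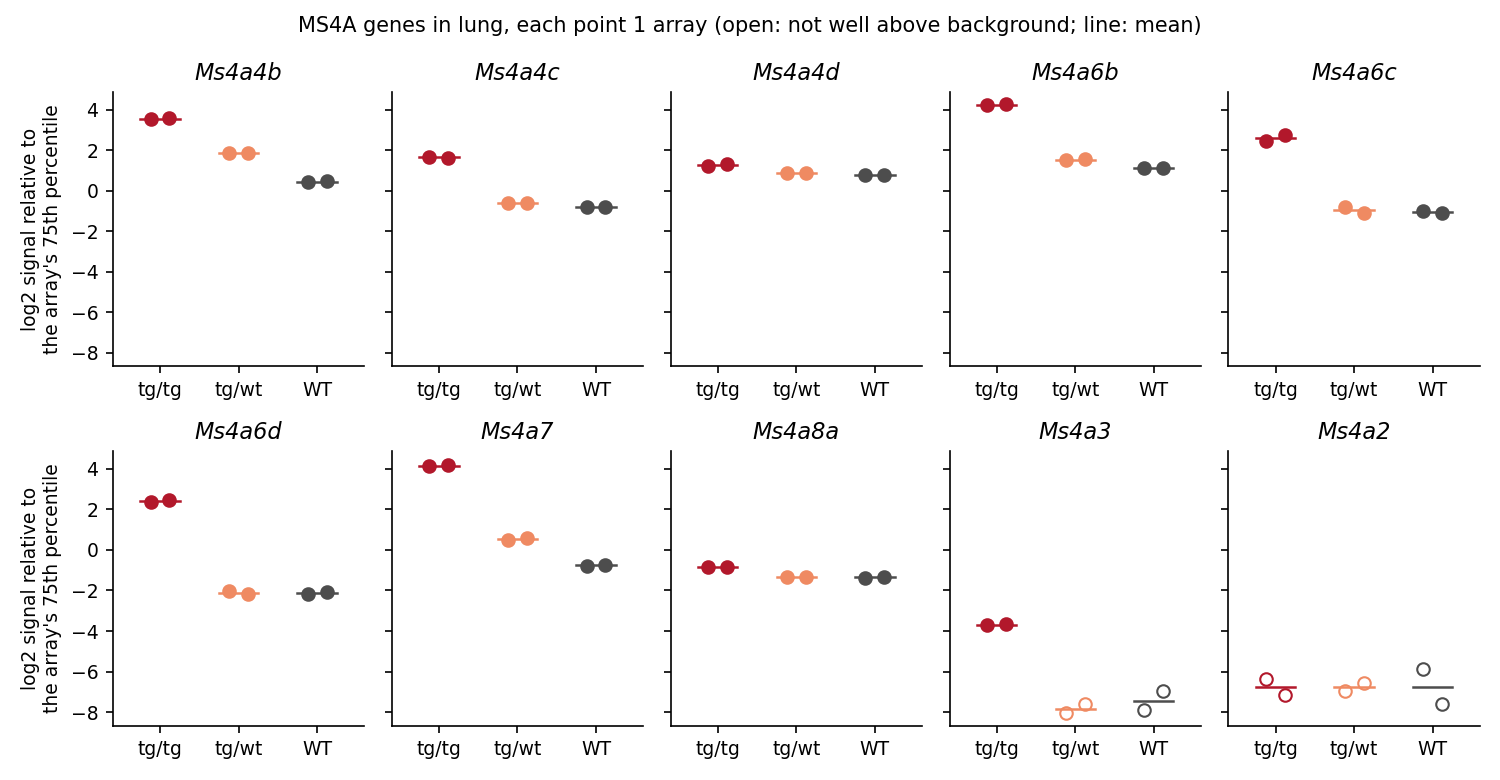
Level of each MS4A gene on each array, as log2 signal relative to the array's 75th percentile (y axis), by genotype (x axis); filled points were well above background, open points were not, and lines are means of 2 arrays. Both tg/tg arrays lie above both WT arrays for every gene but Ms4a2, whose 6 values are all open.

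Ms4a7 encodes a family member known from macrophages. On its brighter probe the level was 4.12 and 4.18 in tg/tg, 0.50 and 0.58 in tg/wt, and -0.78 and -0.75 in WT. The 3 groups did not overlap, with tg/wt between WT and tg/tg. Ms4a7 was 30.3-fold higher in tg/tg lungs than in WT (log2 difference 4.92, SE 0.0451, adjusted p = 6.38e-07) and 2.47-fold higher in tg/wt lungs than in WT (1.31, adjusted p = 3.47e-04). Between tg/tg and tg/wt the log2 difference was 3.61 (adjusted p = 1.35e-06). A second probe gave log2 differences of 4.92 in tg/tg against WT and 1.29 in tg/wt against WT, so that the probes differed by less than their SE.

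Ms4a6d, a gene of mouse macrophages, had levels of 2.38 and 2.44 in tg/tg, -2.02 and -2.19 in tg/wt, and -2.15 and -2.09 in WT. The tg/tg arrays stood apart, and the tg/wt and WT arrays overlapped. Its level was 23.1-fold higher in tg/tg lungs than in WT (log2 difference 4.53, SE 0.0705, adjusted p = 1.62e-06). In tg/wt against WT the log2 difference was 0.014 (SE 0.0705, adjusted p = 0.896), and its sign depended on the setting.

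Ms4a6c, expressed in mouse monocytes, followed the same order, with levels of 2.44 and 2.73 in tg/tg, -0.81 and -1.08 in tg/wt, and -1.01 and -1.09 in WT. Here too tg/wt and WT overlapped, and the tg/tg arrays lay farther apart than those of any other member measured on all arrays. The level was 12.4-fold higher in tg/tg lungs than in WT (log2 difference 3.64, SE 0.134, adjusted p = 1.74e-05), and in tg/wt against WT the log2 difference was 0.11 (SE 0.134, adjusted p = 0.589).

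Ms4a6b, described in mouse T cells, had levels of 4.23 and 4.25 in tg/tg, 1.53 and 1.55 in tg/wt, and 1.14 and 1.14 in WT. None of the groups overlapped. It was 8.58-fold higher in tg/tg lungs than in WT (log2 difference 3.10, SE 0.0318, adjusted p = 6.80e-07) and 1.32-fold higher in tg/wt lungs than in WT (0.40, adjusted p = 0.00236). Unlike Ms4a6c and Ms4a6d, Ms4a6b was thus called in tg/wt as well; the difference between these genes in their tg/wt response was not tested.

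The regions upstream of Ms4a6b and Ms4a6c are shown because they share a long identical run at different distances from the start. Below are the 250 bases before each gene's start in RefSeq (build GRCm38.p6), with capitals on the letters that match the ETS core GGAAGT on either strand, the motif bound by the myeloid factor PU.1 and its relatives.
Ms4a6b, chr19:11518309-11518558, plus strand: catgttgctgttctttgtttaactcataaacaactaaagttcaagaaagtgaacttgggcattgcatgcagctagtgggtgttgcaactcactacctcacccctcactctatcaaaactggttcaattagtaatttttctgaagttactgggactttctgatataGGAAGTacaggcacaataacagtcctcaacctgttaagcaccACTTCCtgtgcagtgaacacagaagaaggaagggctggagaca
Ms4a6c, chr19:11469118-11469367, plus strand: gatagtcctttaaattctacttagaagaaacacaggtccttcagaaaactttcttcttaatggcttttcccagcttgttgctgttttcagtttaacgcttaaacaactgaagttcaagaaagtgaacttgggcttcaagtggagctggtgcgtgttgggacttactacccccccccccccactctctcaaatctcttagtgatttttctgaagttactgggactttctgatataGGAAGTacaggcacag
The windows share an identical run of 48 bases, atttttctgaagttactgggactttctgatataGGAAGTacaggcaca, which holds the motif in both. In Ms4a6c the motif ends 11 bases before the start, and in Ms4a6b the same run lies farther upstream, with the motif ending 80 bases before the start. Among all 45 pairs of windows of these genes this was the longest shared run, and the median was 8 bases. In a global alignment the windows were 47.4% identical, against a median of 49.0% over the pairs. This measure counts gaps at the ends, so it is low for windows that are alike at an offset and does not show how alike these are. How far each probe of a member sees the transcripts of its relatives was not tested, because probe sequences were not used here.

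Ms4a4b, which modulates receptor signalling in mouse T cells, had levels of 3.54 and 3.57 in tg/tg, 1.84 and 1.88 in tg/wt, and 0.40 and 0.46 in WT. The groups did not overlap, and tg/wt lay between WT and tg/tg. Ms4a4b was 8.70-fold higher in tg/tg lungs than in WT (log2 difference 3.12, SE 0.0401, adjusted p = 1.13e-06). Its level was 2.69-fold higher in tg/wt lungs than in WT (1.43, adjusted p = 2.79e-04), the largest called difference of any of these genes in that comparison, and 3.24-fold higher in tg/tg lungs than in tg/wt (1.70, adjusted p = 5.69e-06). All 4 probes of Ms4a4b were called in each comparison. Over these probes the log2 difference in tg/tg against WT was between 2.81 and 3.50, and in tg/wt against WT between 1.04 and 1.45.

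Ms4a4c, a close relative and neighbour of Ms4a4b, had levels of 1.66 and 1.62 in tg/tg, -0.62 and -0.62 in tg/wt, and -0.83 and -0.80 in WT. Its groups did not overlap, with tg/wt close to WT. Ms4a4c was 5.48-fold higher in tg/tg lungs than in WT (log2 difference 2.45, SE 0.0343, adjusted p = 1.27e-06). In tg/wt the difference from WT was 0.19 (SE 0.0343, adjusted p = 0.0186), and this call ended when tg/wt 1, tg/wt 2, WT 1 or WT 2 was left out (adjusted p = 0.0731 to 0.107).

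The windows upstream of Ms4a4b and Ms4a4c are shown because they are alike in the part nearer the start, with the ETS core in capitals. Their parts farther upstream look unlike.
Ms4a4b, chr19:11443308-11443557, plus strand: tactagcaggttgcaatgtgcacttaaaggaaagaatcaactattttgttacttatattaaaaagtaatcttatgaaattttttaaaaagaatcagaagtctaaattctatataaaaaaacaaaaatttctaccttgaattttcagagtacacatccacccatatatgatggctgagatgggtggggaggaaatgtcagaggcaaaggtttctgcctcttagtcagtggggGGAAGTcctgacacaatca
Ms4a4c, chr19:11407411-11407660, plus strand: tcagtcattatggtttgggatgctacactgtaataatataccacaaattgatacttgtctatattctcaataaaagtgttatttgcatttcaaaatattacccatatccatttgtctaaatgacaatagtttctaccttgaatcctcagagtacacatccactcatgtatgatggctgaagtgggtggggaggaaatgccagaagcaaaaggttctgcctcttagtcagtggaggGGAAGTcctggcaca
At 70.9% identity in a global alignment they had the highest value of the 45 pairs, whose median was 49.0%. The measure favours windows that are alike at the same distance from the start. The motif ends 14 bases before the start in Ms4a4b and 10 bases before it in Ms4a4c. In tg/wt lungs the log2 difference from WT was 1.43 for Ms4a4b and 0.19 for Ms4a4c, and whether these differ was not tested.

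Ms4a4d changed little. On the brighter of its probes the level was 1.21 and 1.33 in tg/tg, 0.86 and 0.85 in tg/wt, and 0.78 and 0.79 in WT. The level was 1.40-fold higher in tg/tg lungs than in WT (log2 difference 0.48, SE 0.0492, adjusted p = 6.19e-04), and in tg/wt against WT the difference was 0.068 (adjusted p = 0.351). Its other probe had levels of 1.23 and 1.34 in tg/tg, 0.51 and 0.45 in tg/wt, and 0.31 and 0.44 in WT. That probe gave a larger log2 difference in tg/tg against WT, 0.91 (SE 0.0686, adjusted p = 3.23e-04 over all probes). The probes therefore share the direction but not the size, and their mean gave 0.70.

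**Figure D2:**
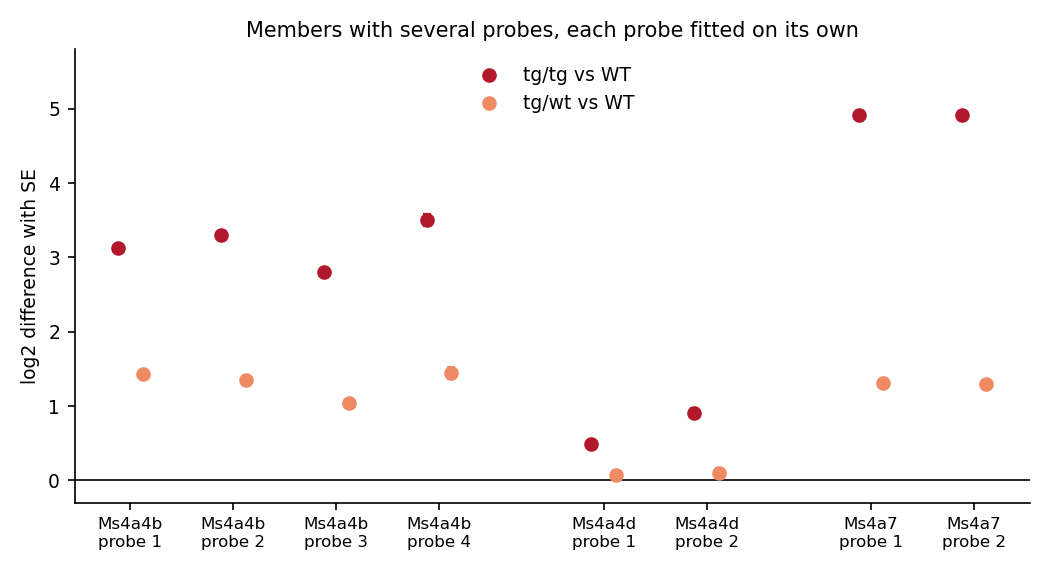
Log2 difference with SE (y axis) for each probe of the 3 genes with several probes (x axis), in tg/tg against WT and in tg/wt against WT, each probe fitted on its own. The 2 probes of Ms4a7 coincide at 4.92, those of Ms4a4b spread from 2.81 to 3.50, and those of Ms4a4d lie at 0.48 and 0.91.

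Ms4a8a, described in mouse epithelial cells and in alternatively activated macrophages, had levels of -0.84 and -0.85 in tg/tg, -1.33 and -1.34 in tg/wt, and -1.37 and -1.32 in WT. The tg/tg arrays were higher and the other groups overlapped. Its level was 1.42-fold higher in tg/tg lungs than in WT (log2 difference 0.50, SE 0.0356, adjusted p = 1.66e-04), and in tg/wt against WT the difference was 0.015 (SE 0.0356, adjusted p = 0.781). All 7 tested genes of ciliated and airway epithelium were lower in tg/tg lungs than in WT, with a median log2 difference of -1.54.

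Ms4a3, a regulator of the cell cycle in blood cell progenitors, was well above background on both tg/tg arrays and on none of the others. Its levels were -3.71 and -3.66 in tg/tg, -8.05 and -7.62 in tg/wt, and -7.91 and -6.98 in WT, and the lowest level of any probe well above background was -5.74 to -5.22 per array. Ms4a3 was at least 3.61-fold higher in tg/tg lungs than in WT (adjusted p = 3.77e-04) and at least 3.55-fold higher in tg/tg lungs than in tg/wt (adjusted p = 2.73e-04), where a bound sets the dim arrays at that lowest level and each p is that of the fit without it. Because Ms4a3 was tested only on account of its tg/tg arrays, these p-values describe and do not add support. With the floor in the fit, the log2 difference in tg/tg against WT was 1.85 (adjusted p = 1.77e-04). Without such a floor the fitted log2 difference in tg/tg against WT was 3.75 (SE 0.334), which rests on signals below background and came to 1.11 with a normexp background correction. Among neutrophil and granulocyte precursor genes, 8 of 9 tested were higher in tg/tg lungs than in WT. Mpo, the myeloperoxidase of their granules, was 12.3-fold higher, and Ctsg, a granule protease, was 10.3-fold higher. Prtn3, the 1 not called and named after its values were seen, had a log2 difference of -0.070 (adjusted p = 0.598) at levels near background. In tg/wt 7 of these 9 were lower than in WT and none was higher, and of the 7, Camp and Ngp were not well above background on any tg/wt array. The mean log2 level of the 9 genes was -0.18 to -0.16 in tg/tg, -2.99 to -2.84 in tg/wt and -1.80 to -1.78 in WT, and Elane was well above background on 1 array at most. Their part in the Ms4a3 result was not tested.

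Ms4a2 encodes the beta chain of the high-affinity IgE receptor, which amplifies the signal of the receptor in mast cells and basophils. Its signal was 9.72 and 7.14 intensity units in tg/tg, 9.59 and 9.80 in tg/wt, and 16.0 and 4.96 in WT. The values overlapped between all groups and none was well above background, so that Ms4a2 could not be followed at the sensitivity of this probe. Other parts of the receptor were measured. Fcer1a, the chain that binds IgE, named here as a subunit after its values were seen, had a log2 difference of 0.25 in tg/tg against WT (SE 0.129, adjusted p = 0.138). Its levels were low, -4.51 and -4.74 in tg/tg and -4.78 and -4.98 in WT. The lowest level of any probe well above background was -5.74 to -5.22 per array, so a change in Fcer1a could be missed. Fcer1g, the signalling chain that IgE and IgG receptors share, was 7.77-fold higher in tg/tg (2.96, SE 0.0547, adjusted p = 2.51e-06). With these, 9 of 10 genes of the receptor and its proximal signalling were higher in tg/tg lungs than in WT and none was lower, with a median log2 difference of 1.19, and most of them also serve other receptors. Genes of mast cells and basophils went both ways: among the 7 that could be tested, tg/tg lungs had 2 higher and 3 lower than WT lungs. Cma1, a mast cell chymase, rose by 0.80 on the log2 scale, while Kit, the stem cell factor receptor, and the transcription factor gene Gata2 fell by 1.35 and 1.19. Tpsb2 and Mrgprb1 of mast cells and Mcpt8 of basophils were not well above background on any array.

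**Figure D3:**
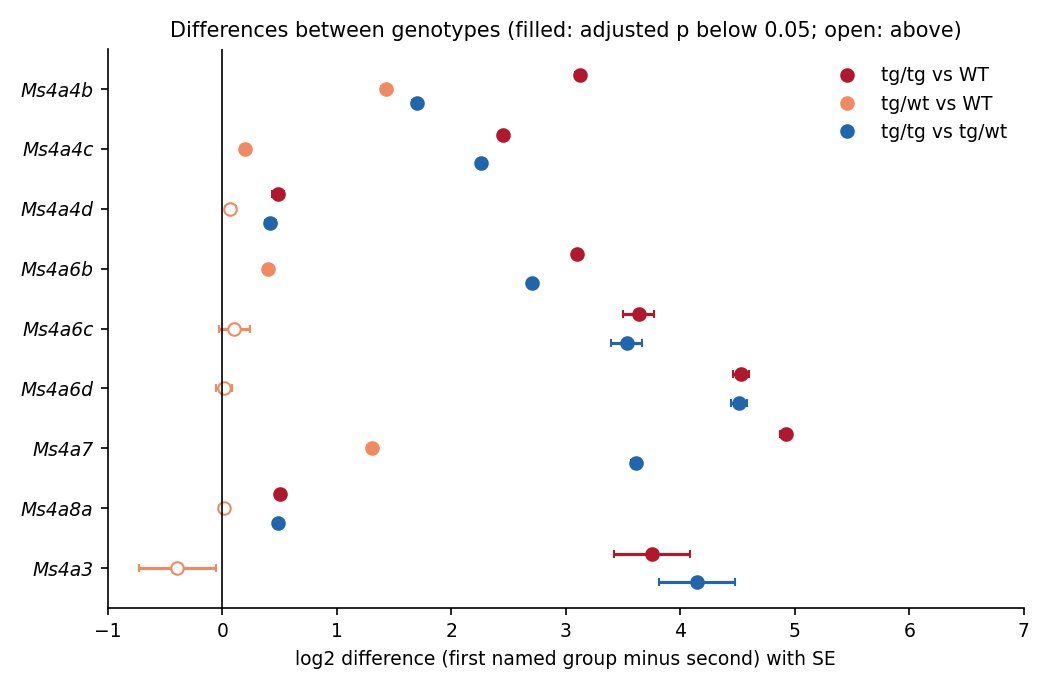
Log2 difference with SE (x axis) of the 9 tested MS4A genes (y axis) in each comparison, first named genotype minus second; filled points have an adjusted p below 0.05. In tg/wt against WT, Ms4a4b (1.43) and Ms4a7 (1.31) stand apart from the others, and the Ms4a3 values rest on signals below background in tg/wt and WT.

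Markers of T cells, monocytes and recruited macrophages were higher in tg/tg, as were most of these genes. So were most tested genes of neutrophils and granulocyte precursors, of NK cells and of eosinophils. Those of alveolar macrophages, B cells and airway epithelium were mostly or all lower, and those of mast cells and basophils went both ways. All 11 tested T cell genes were higher in tg/tg lungs than in WT, led by Cd6 (18.0-fold), Cd5 (11.7-fold) and Cd3d, part of the T cell receptor complex (9.50-fold), and 9 of them were higher in tg/wt lungs than in WT. The mean log2 level of these 11 genes was 1.0 to 1.05 in tg/tg, -0.70 to -0.67 in tg/wt and -1.49 to -1.44 in WT. All 11 tested genes of recruited and interstitial macrophages were higher in tg/tg lungs than in WT, led by Fcgr1, an IgG receptor gene (22.4-fold), by Gpnmb (22.1-fold) and by C1qb of the complement system (16.7-fold), and 9 were higher in tg/wt. Their mean log2 level was 3.70 to 3.75 in tg/tg, 1.12 to 1.13 in tg/wt and 0.70 to 0.74 in WT. All 8 tested monocyte genes were higher in tg/tg, led by Fcgr4, Itgam and Cd14 with log2 differences of 4.66, 3.70 and 2.66, while in tg/wt 3 were higher and 2 lower than in WT. Their mean log2 level was 1.90 to 1.93 in tg/tg, -0.23 to -0.17 in tg/wt and -0.28 to -0.24 in WT.

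Other cell types gave a mixed picture. Of 8 alveolar macrophage genes 6 were lower in tg/tg lungs than in WT, including Krt79 (29.7-fold lower) and the ribonuclease gene Ear1, whose log2 difference was -3.33, and 2 were higher. Fabp1 of that list was well above background on both WT arrays and on neither tg/tg array. Of 7 B cell genes 5 were lower and 1 higher in tg/tg lungs than in WT, whereas all 7 were higher in tg/wt; of the 5, Blk and Cr2 were not well above background on any tg/tg array. Of 8 NK cell genes 7 were higher and 1 lower in tg/tg. The lower gene was Ncr1, named after its values were seen, with a log2 difference of -0.98 against WT (adjusted p = 0.0108). It was well above background on 1 of the 2 tg/tg arrays. Of 4 eosinophil genes 3 were called higher in tg/tg, among them Epx, which was well above background on the tg/tg arrays alone and so was tested only through them, and in tg/wt 1 was lower. How far the numbers of any of these cells account for the MS4A levels was not tested.

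The gene with the nearest profile differed from member to member. Likeness was taken as the Euclidean distance over the 6 arrays between log2 levels centred on each gene's mean, among 12804 genes, and it is a description. Nearest to Ms4a4b were Klrc1 (distance 0.109), an inhibitory receptor gene of NK and T cells, and Ctsw (0.157), a cathepsin gene of cytotoxic lymphocytes. Nearest to Ms4a7 were the interferon-inducible genes Gbp6 (0.273) and Zbp1 (0.315). For Ms4a6b they were Bcl2a1b (0.0873), a survival gene of the Bcl2 family, and the receptor gene Gpr65 (0.136). Ms4a4c lay nearest to Pycard (0.0749), the inflammasome adaptor, and Ass1 (0.0899), an enzyme of arginine synthesis.

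For Ms4a6c the nearest were Fcgr2b (0.258), an inhibitory IgG receptor gene, and the integrin gene Itgam (0.267), and for Ms4a6d they were Lilrb4a (0.231), an inhibitory receptor gene, and Timp1 (0.243), a protease inhibitor gene. Ms4a4d and Ms4a8a lay close to genes of broad use, Eif5a (0.0525) and Limd2 (0.0554) for the first and Creb3 (0.0375) and Bop1 (0.0494) for the second. Ms4a3 was nearest to Ppm1n (0.528) and Saa2 (0.699), with distances set partly by signals below background. Among the members themselves Ms4a4d and Ms4a8a were the closest pair (0.122), followed by Ms4a4c and Ms4a6b (0.663), and Ms4a4d and Ms4a6d were the farthest apart (4.70).

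The genes lie in one stretch of chromosome 19. Reading from Ms4a8a, the array also holds Ms4a19, Ms4a13 and Ms4a5, none of which met the rule for tested probes, and then Ms4a7, Ms4a4c, Ms4a4b, Ms4a6c, Ms4a6b, Ms4a4d, Ms4a6d, Ms4a2 and Ms4a3. Ms4a4d, with 0.48 on its brighter probe and 0.91 on the other, lies between Ms4a6b with 3.10 and Ms4a6d with 4.53. Outside the family the 3 nearest tested genes on each side were looked up after the data were seen. On the side of Ms4a8a, Ccdc86 was higher in tg/tg lungs than in WT (1.64, adjusted p = 4.37e-06), Ptgdr2 had a difference of 0.16 (adjusted p = 0.376) and Prpf19 was lower (-0.34, adjusted p = 0.00442). Farther out on that side Tmem109 and Tmem132a were lower in tg/tg lungs than in WT (-0.99 and -0.36, adjusted p = 2.00e-05 and 0.00101). Beyond them Slc15a3, Cd6 and Cd5, named after their values were seen, had differences of 3.01, 4.17 and 3.55 in tg/tg against WT. These were as large as those of MS4A genes. In tg/wt against WT the 3 had 0.17, 1.38 and 1.25. Vps37c, next to Cd5, had 0.44 in tg/tg against WT (adjusted p = 0.00356). Large differences were thus not limited to the family. On the side of Ms4a3, Oosp1 (0.44, adjusted p = 0.0390; in tg/wt not well above background) and Mrpl16 (0.39, adjusted p = 0.00199) were higher and Stx3 had a difference of 0.17 (adjusted p = 0.149).

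**Figure D4:**
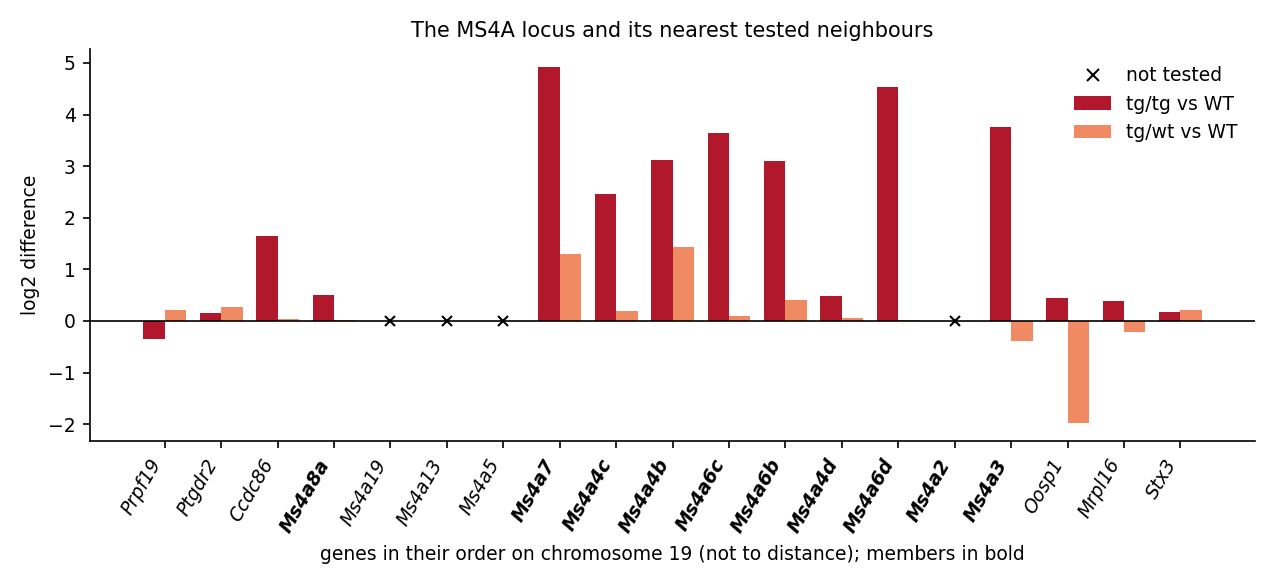
Log2 difference (y axis) in tg/tg against WT and in tg/wt against WT for genes in their order on chromosome 19, with 3 tested neighbours on each side, the MS4A genes described here in bold and the CD20 gene left out; crosses were not tested, and spacing is not to distance. The bars over 2 in tg/tg against WT are those of Ms4a7, Ms4a4c, Ms4a4b, Ms4a6c, Ms4a6b, Ms4a6d and Ms4a3, the last fitted on signals below background in WT.

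The genes of related structure, Tmem176a and Tmem176b, were the only others of their list with a tested probe. Both were higher in tg/tg lungs than in WT, by 0.58 and 0.55 on the log2 scale (adjusted p = 1.04e-04 and 3.17e-04), and had differences of -0.12 and -0.14 in tg/wt against WT (adjusted p = 0.0680 and 0.0918).

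Upstream windows of 250 bases were found for 9 of the 10 genes, with 2 for Ms4a7, and searched on both strands for 6 motifs chosen after the data were seen. The ETS core GGAAGT was in 7 of the 10 windows, each of another gene (Ms4a3, Ms4a4b, Ms4a4c, Ms4a4d, Ms4a6b, Ms4a6c and Ms4a7), and 19.7% of all 32851 windows hold it. The windows are not independent: Ms4a6b and Ms4a6c have the motif in the run they share. Those of Ms4a4b and Ms4a4c are alike in the part that holds it. No window held the interferon-gamma activated site TTCNNNGAA or the core of the interferon-stimulated response element (GAAA, any 2 bases, GAAA), which 7.02% and 2.98% of all windows hold. The T-box half-site GGTGTGA, a form of the sequence T-bet binds, was in 1 window of Ms4a7 and in 3.33% of all windows. The C/EBP site TTGCNNAA was in that of Ms4a4d (9.56% of all) and the MAF half-site TGCTGAC in that of Ms4a8a (3.81% of all). The Ms4a7 window with matches is shown because it holds both kinds, the T-box half-site first and then the ETS core, both in capitals and both on the opposite strand.
Ms4a7, chr19:11336147-11336396, minus strand: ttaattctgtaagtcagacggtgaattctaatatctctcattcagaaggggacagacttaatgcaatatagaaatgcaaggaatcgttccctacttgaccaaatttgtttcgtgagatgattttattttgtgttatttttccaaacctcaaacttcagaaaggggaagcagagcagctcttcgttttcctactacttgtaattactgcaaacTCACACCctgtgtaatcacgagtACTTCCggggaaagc
The T-box match spans bases 38 to 32 before the start and the ETS match bases 15 to 10, and the other Ms4a7 window held no match. A match of letters does not show binding, and the motifs could not be set against the genotypes.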

How the data were processed

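Per the labels' protocols, lung RNA was extracted with a column kit and labelled with Cy3. Per the file headers, the authors' deposited intensity values came from Agilent's Feature Extraction 9.5.3.1 on a 44K mouse design, background-subtracted within the array and not scaled between arrays; the submitters' processing notes name version 9.1. The processed signal of the scanner files, background-subtracted and detrended, was analysed; the deposited series table holds another column, their background-subtracted signal, and served as an alternative. Spots of 1 probe were averaged without control or outlier spots, and log2 intensity was set relative to each array's 75th percentile. Probes were named by accession through RefSeq (22951 of 41174), since the files hold no column of gene names. Probes had to exceed background clearly on 2 or more of the 6 arrays, and the brightest probe stood for a gene. All arrays entered 1 limma model of group means (limma 3.58.1, R 4.3.3, 3 residual degrees of freedom), adjusted by Benjamini-Hochberg over 12968 genes. Precision is limited by the number of arrays. The fit was run on simulated data with few changed genes as a check of the code. That setting differs from these data, so it does not show how well the p-values hold here. All members are named; for each called member the 2 nearest profiles, and per marker list up to 3 called genes with large changes. Members, lists and motifs were chosen with earlier results of these data known. Alternatives were another background correction, 2 other scalings, 2 other filters, a floor, other handling of probes, trended variance, fewer groups, the series table, blocks for slide or for replicate number, and omission of each array in turn. Promoter windows come from RefSeq, build GRCm38.p6, which is not the build of the array's design (mm7). Alignments used Biopython 1.88 and figures matplotlib 3.10.9 (Python 3.11.15).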

Additional observations from a re-analysis of the deposited data

How the results depend on the processing

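Every call of the 9 tested genes in tg/tg against WT (9 called) and in tg/tg against tg/wt (9 called) kept its direction and its side of the threshold under each alternative run. In tg/wt against WT, 4 were called under every alternative except without tg/wt 1, tg/wt 2, WT 1 or WT 2, where 3 were called because Ms4a4c was lost. The share of all genes called in that comparison was 14.7% with no filter on dim probes and 10.8% to 26.8% with 1 array left out. Signs turned there only for genes that were not called: Ms4a6d was -0.060 with normexp, -0.015 with quantile normalization and -0.074 to 0.10 with 1 array left out, Ms4a8a was -0.011 with normexp and -0.012 to 0.042 with 1 array left out, Ms4a6c was -0.026 to 0.24 with 1 array left out, and Ms4a3 was 0.021 with a floor, 0.011 with the series table and -0.86 to 0.073 with 1 array left out. The cause was not tested. The Ms4a3 difference in tg/tg against WT was 1.11 with normexp, 1.85 with a floor and 1.83 with the series table, against 3.75, and stayed called. With the replicate number as a block (replicate block), 9, 4 and 9 genes were called in tg/tg against WT, tg/wt against WT and tg/tg against tg/wt. Of all genes, 72.8%, 20.2% and 72.2% were called in these fits, against 74.7%, 27.9% and 74.2% in the main fit. The arrays share only a number, and deviations of same-numbered arrays correlated at -0.048, 0.13 and -0.046. For tg/tg against WT the fit with slide as a block is that within slide 1, and no such fit can be made for tg/wt. With 1 array left out, the lone array of its group is assumed to vary like the others. Signals near background limit Ms4a2 and Ms4a3.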
